A study of Mus musculus with 8 samples.

Results

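The 10 genes described here, Cdhr2, Cdhr5, Ush1c, Myo7b, Anks4b, Vil1, Espn, Eps8, Ezr and Myo1a, encode building blocks of the microvilli on the apical face of epithelial cells. They were taken by symbol from the 53170 named genes of the deposited count table. All 10 had a row, and 6 were counted often enough to be tested, among 14058 tested genes. The libraries come from organoids of mouse glandular stomach (hindstomach) epithelium taken at embryonic day 18.5 and kept in growth medium for 5 days. The 4 control libraries have the genotype Shh-Cre, a recombinase made in Shh-expressing cells such as those of the gut endoderm, and the 4 YAP5SA libraries have the genotype Shh-Cre;YAP5SA, which adds an active form of the Hippo pathway effector YAP. Both groups therefore carry Shh-Cre.

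A microvillus is a finger of plasma membrane around a bundle of parallel actin filaments. Villin, espin and EPS8 act on the filaments, ezrin and myosin-1a tie the bundle to the membrane, and protocadherins at the tips link neighbouring microvilli through a complex of harmonin, myosin-7b and ANKS4B, so that the fingers pack into a brush border. A dense brush border is best known from the absorptive cells of the intestine and the kidney tubule, while stomach surface cells carry shorter microvilli and parietal cells carry ezrin-rich ones in their canaliculi.

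All 6 tested members were lower in YAP5SA organoids, by very different amounts. The tip-link cadherin gene Cdhr2 and its complex partner Anks4b went from 28.0 ± 2.9 and 5.67 ± 1.09 CPM (SD, n = 4) to 1 count each over the 4 YAP5SA libraries. Vil1 fell 8.19-fold, Espn 4.30-fold and Eps8 2.51-fold, and Ezr, by far the most abundant member, fell 1.27-fold. The other 4 members, Cdhr5, Myo7b, Myo1a and Ush1c, stayed below 1 CPM in every library of both groups. Levels are in CPM, a gene's counts scaled to a common library size. Genes count as changed where the Benjamini-Hochberg adjusted p of edgeR's quasi-likelihood test, taken over all tested genes, is below 0.05. By that rule 49.1% of all tested genes changed and 25.5% were lower, so a call by itself is common in this comparison. The median log2 fold change of the 6 tested members was −2.57, against 0.00 over all tested genes. Cdhr2 and Anks4b passed the filter on low counts through the controls alone, while the other 4 tested members had at least 10 counts in every library. The count and median therefore describe the tested members and not all 10.

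**Figure D1:**
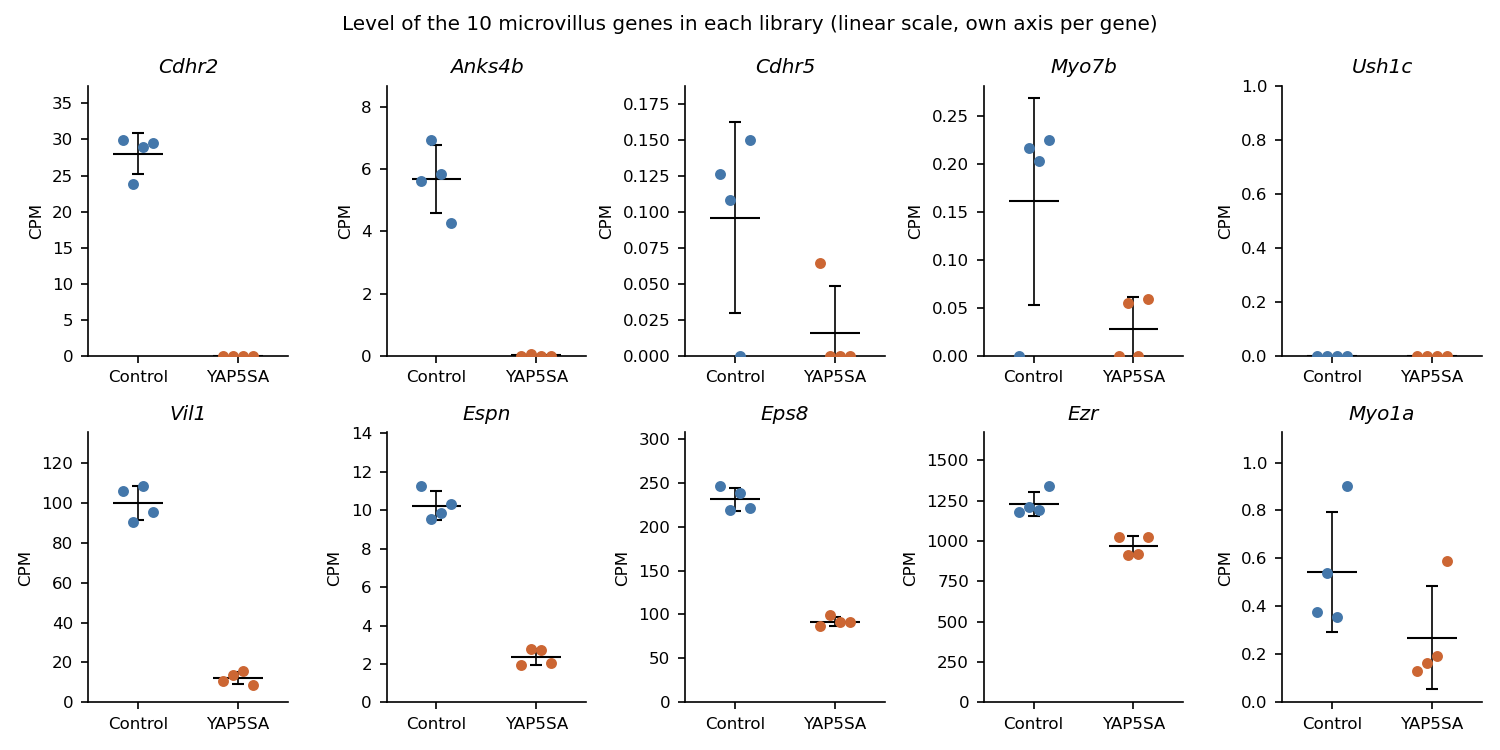
CPM of each of the 10 genes (y axis, linear, a separate scale per gene) in the 4 control and 4 YAP5SA libraries (x axis). Points are libraries, the horizontal line is the group mean and the bars are ± 1 SD. The groups lie apart for Cdhr2, Anks4b, Vil1, Espn, Eps8 and Ezr, as they do for 45.7% of all tested genes. They overlap for Cdhr5, Myo7b and Myo1a, which had too few counts to test, while Ush1c is at 0 throughout.

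Facts of the whole series bear on every comparison below. Library totals ran from 13672268 to 19710648 counts. Xist, an RNA of female cells, had 676 to 1049 CPM in controls against 0.41 to 2.76 CPM in YAP5SA, while Y-linked Ddx3y had 0 to 0.32 and 68.2 to 75.6 CPM, so genotype and sex cannot be told apart. No member lies on the X or Y chromosome. Mouse Yap1 had 160.0 ± 7.2 and 153.3 ± 4.2 CPM (adjusted p = 0.339, edgeR), and whether the transgene is counted on it is not given in the sources used here, so Yap1 does not check the labels. Nothing in the labels tells whether the 4 libraries of a genotype are separate animals or cultures, so each p-value reflects library-to-library spread alone, possibly technical. In bulk organoid RNA, fewer cells of a type and less RNA per cell cannot be told apart.

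The cells were epithelial by their markers. Of 6 epithelial markers, Krt19 was the most abundant (2543 ± 99 CPM in controls, 2155 ± 83 in YAP5SA) and Cldn7 the least (157.8 ± 11.9 and 154.7 ± 7.0 CPM). By edgeR, 3 of the 6 fell and 1 rose, where 49.1% of all tested genes were called. Krt18 also passed as lower by DESeq2 (adjusted p = 0.0242) and in edgeR without control 1 (0.0371) or control 4 (0.0395). The 9 mesenchymal markers together summed to between 1.80 and 4.36 CPM in controls and between 0.61 and 1.71 CPM in YAP5SA, with Lum at 0 counts in all libraries and Col1a2 the highest at 0.80 ± 0.24 CPM in controls.

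The start regions of 4 members are shown because these genes span the observed range, from the near loss of Cdhr2 and Anks4b through Vil1 to the small change of Ezr. Each is the 250 bases before the gene's start, from RefSeq on GRCm38.p6, a build other than the mm9 named in the submitters' processing notes. Capitals mark exact matches, on either strand, to short core letters of factors known at brush border genes or of TEAD, the DNA-binding partner of YAP. TEAD was searched as GGAATG. The nuclear receptor HNF4 was searched as CAAAGTC. The letters for GATA factors were AGATAA. The intestinal CDX factors were searched as TTTATG.
Cdhr2, chr13:54701213-54701462, plus strand: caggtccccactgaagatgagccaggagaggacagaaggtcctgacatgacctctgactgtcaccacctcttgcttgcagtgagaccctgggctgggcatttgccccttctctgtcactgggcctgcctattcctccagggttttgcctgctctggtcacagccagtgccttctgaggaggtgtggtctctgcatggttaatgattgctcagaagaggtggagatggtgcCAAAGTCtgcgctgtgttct
Anks4b, chr7:120173608-120173857, plus strand: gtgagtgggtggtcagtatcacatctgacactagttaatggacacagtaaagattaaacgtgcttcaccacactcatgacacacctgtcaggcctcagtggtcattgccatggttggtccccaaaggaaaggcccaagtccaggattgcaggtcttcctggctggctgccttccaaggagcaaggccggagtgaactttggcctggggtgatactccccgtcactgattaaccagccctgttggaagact
Vil1, chr1:74409134-74409383, plus strand: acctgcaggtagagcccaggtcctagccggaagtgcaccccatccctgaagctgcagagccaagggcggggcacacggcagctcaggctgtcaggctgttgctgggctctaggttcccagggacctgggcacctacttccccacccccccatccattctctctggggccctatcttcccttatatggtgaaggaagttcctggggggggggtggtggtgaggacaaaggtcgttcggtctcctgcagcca
Ezr, chr17:6782781-6783030, minus strand: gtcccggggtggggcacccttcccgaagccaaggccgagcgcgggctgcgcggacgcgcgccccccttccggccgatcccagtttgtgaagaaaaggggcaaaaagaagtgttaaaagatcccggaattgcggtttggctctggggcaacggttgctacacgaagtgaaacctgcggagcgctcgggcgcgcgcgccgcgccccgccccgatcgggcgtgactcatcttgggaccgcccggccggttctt

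Cdhr2 held the HNF4 letters 20 bases before its start. No match was found for Anks4b, Vil1 or Ezr. Over all 32851 RefSeq promoter windows of this length, 3.84% held the HNF4 letters, 9.99% the GATA letters, 10.8% the CDX letters and 12.6% the TEAD letters, and 68% held none of them. Among the other members in the promoter table, Ush1c and Myo1a had no match and Cdhr5 had the CDX letters. Of 3 starts of Espn, 1 had the CDX letters and the other two had no match. In all, 8 of the 10 members had an entry that was searched. Eps8 and Myo7b were not searched. A match is a run of letters and not a measured binding site. Only these exact letters were searched, so a site with other letters would be missed.

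In the adhesion complex, Cdhr2 and Anks4b were nearly absent from YAP5SA, and the other 3 listed genes were too low to test. CDHR2 and CDHR5 are the protocadherins that form the tip link, harmonin (Ush1c) is its scaffold, ANKS4B binds the scaffold, and MYO7B is the motor that carries the complex. Cdhr2 was read at 29.9, 23.8, 28.9 and 29.6 CPM in controls 1 to 4, from 394 to 568 counts a library. Among YAP5SA libraries, 1 of the 4 had a single count and the others had 0. The ratio of pooled levels, control over YAP5SA, was 1841, with a 95% counting interval from 330 to 72770 (adjusted p = 3.05e-15, edgeR).

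Anks4b followed Cdhr2 at a lower level. It had 5.62, 6.93, 5.85 and 4.28 CPM in controls 1 to 4 and, as for Cdhr2, a single count in YAP5SA 2 and none in the other YAP5SA libraries. The pooled ratio was 382, with a counting interval from 68.2 to 15128 (adjusted p = 9.91e-11, edgeR). The lowest control value of either gene lay far above the highest YAP5SA value, which was 0.055 CPM for both. Fitted log2 values for these genes, −10.27 and −7.98, depend on how the fit treats zeros and are no bound. Calml4, a calmodulin-like light chain of the same complex that is outside the 10 genes, dropped to 0.08 ± 0.06 CPM against 1.41 ± 0.26 CPM in controls (log2 fold change −4.10 ± 0.51 SE, adjusted p = 2.43e-06, edgeR).

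The other 3 listed genes of the complex were at or near 0 in the controls as well. Cdhr5, the partner cadherin of Cdhr2 in the tip link, had 6 counts over the 4 controls and 1 over the YAP5SA libraries. Its pooled ratio of 5.89 had a counting interval from 0.71 to 271. Myo7b had 11 and 2 counts, a ratio of 5.40 with an interval from 1.18 to 50.2, and control 1 had none. Ush1c had no count in any library, which with 3 counts as the limit allows up to 0.045 CPM over either group if its reads were assigned to it, which the count table does not show. Without a filter on low counts, Cdhr5 and Myo7b did not pass either (adjusted p = 0.324 and 0.225, edgeR).

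Genes of the actin bundle fell to intermediate levels. Vil1 encodes villin, which bundles and at high calcium severs actin. It had 106.0, 90.2, 108.2 and 95.3 CPM in controls 1 to 4, and 10.7, 13.6, 15.7 and 8.83 CPM in YAP5SA 1 to 4. The groups lay far apart. The log2 fold change was −3.03 ± 0.13 SE (adjusted p = 4.05e-10, edgeR), with 380 of 14058 tested genes at or below it.

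Espn encodes espin, a small bundling protein that lengthens microvilli and stereocilia. It had 11.2, 9.53, 9.88 and 10.4 CPM in controls 1 to 4 and 1.94, 2.76, 2.70 and 2.06 CPM in YAP5SA 1 to 4, the latter from 30 to 50 counts a library. The groups did not overlap (log2 fold change −2.11 ± 0.15 SE, adjusted p = 2.65e-09, edgeR). YAP5SA 2 and 3 were above YAP5SA 1 and 4 for both Espn and Vil1.

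Eps8 encodes a capping and bundling protein that sits at the tips of microvilli. It had 245.6, 219.4, 237.6 and 221.0 CPM in controls 1 to 4 and 86.5, 99.1, 91.0 and 91.3 CPM in YAP5SA 1 to 4. The log2 fold change was −1.33 ± 0.06 SE (adjusted p = 1.45e-12, edgeR). The 3 bundle genes differed in size of change, and each group of 4 libraries was narrow beside the gap to the other group.

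Ezr and Myo1a, which link the bundle to the membrane, differed widely in abundance. Ezr encodes ezrin, which binds actin at one end and membrane proteins at the other. It had 1179, 1210, 1189 and 1337 CPM in controls 1 to 4 and 1024, 914, 921 and 1024 CPM in YAP5SA 1 to 4. The groups did not overlap, as was true of 45.7% of all tested genes, and the decrease was small (log2 fold change −0.34 ± 0.06 SE, adjusted p = 8.51e-05, edgeR). Of the tested genes, 21.2% had a fold change at or below that of Ezr. Myo1a, the brush border motor of class I, had between 6 and 12 counts in a control library and between 2 and 10 in a YAP5SA library, 35 and 18 in all. Its pooled ratio was 1.91 with a counting interval from 1.05 to 3.58, the libraries overlapped, and without a filter it did not pass (adjusted p = 0.27, edgeR).

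Levels of different genes are compared here per length, as CPM per kilobase of annotated exon. In controls the order was Ezr (373 CPM per kb), Vil1 (28.1), Eps8 (18.7), Cdhr2 (6.79), Anks4b (1.45), Espn (1.24), Myo1a (0.147), Cdhr5 (0.035), Myo7b (0.024) and Ush1c (0). Anks4b and Espn were not separated in this order, since their control libraries spanned 1.10 to 1.78 and 1.15 to 1.36 CPM per kb, and neither were Cdhr5 and Myo7b. In YAP5SA the order was Ezr (295 CPM per kb), Eps8 (7.44), Vil1 (3.44), Espn (0.286) and Myo1a (0.073), with Cdhr2, Cdhr5, Myo7b and Anks4b at 1 or 2 counts each and not separated. Vil1 and Eps8 changed places on this scale, which rests on annotated exon lengths of 3.551 kb for Vil1 and 12.355 kb for Eps8. In CPM without division by length, Eps8 was the higher of the pair in both groups. Per length, Vil1 had 25.4 to 30.5 CPM per kb against 17.8 to 19.9 for Eps8 in controls, and 2.49 to 4.42 against 7.00 to 8.02 in YAP5SA.

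Ezr dominated the summed level of the 10 genes throughout. It made up 86.8 ± 1.2% of the sum per length in controls and 96.3 ± 0.6% in YAP5SA. The sum of the other 9 genes ran from 52.1 to 59.9 CPM per kb in controls and from 10.3 to 12.3 CPM per kb in YAP5SA.

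Other microvillus genes did not fall as a group. Of 33 further structural genes, 29 were tested, 12 fell, 13 rose and 4 did not pass. Their median log2 fold change was 0.18 among those tested, against 0.00 over all tested genes. Of all tested genes, 49.1% were called and 25.5% were lower. The steepest decrease was in Eps8l3, a relative of Eps8 (19.5 ± 1.9 CPM in controls, 2 counts in YAP5SA, pooled ratio 649, counting interval 179 to 5362). Prom1, which encodes the protrusion protein prominin-1, fell from 1670 ± 87 to 155.2 ± 9.0 CPM (log2 fold change −3.43), while its relative Prom2 rose from 18.5 ± 3.6 to 53.6 ± 3.4 CPM (log2 fold change 1.55). Fscn1, named after its values were seen, encodes fascin, the bundler of filopodia, and rose from 29.5 ± 3.5 to 78.0 ± 8.3 CPM. Of the 4 that did not pass, Cobl, Myo1e and Myh14 passed as higher in edgeR when scaled by library size alone (adjusted p = 0.0328, 0.0345 and 0.0254). Without control 4 these 3 and Msn passed as higher, Msn with an adjusted p of 0.0096 (edgeR). Cobl, Myo1e and Myh14 also passed with no filter on low counts (0.0449, 0.0436 and 0.000829), and Myh14 with a replicate block (0.0486). Calml4 and Eps8l3, with under 10 counts in every YAP5SA library, passed the filter through the controls.

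**Figure D2:**
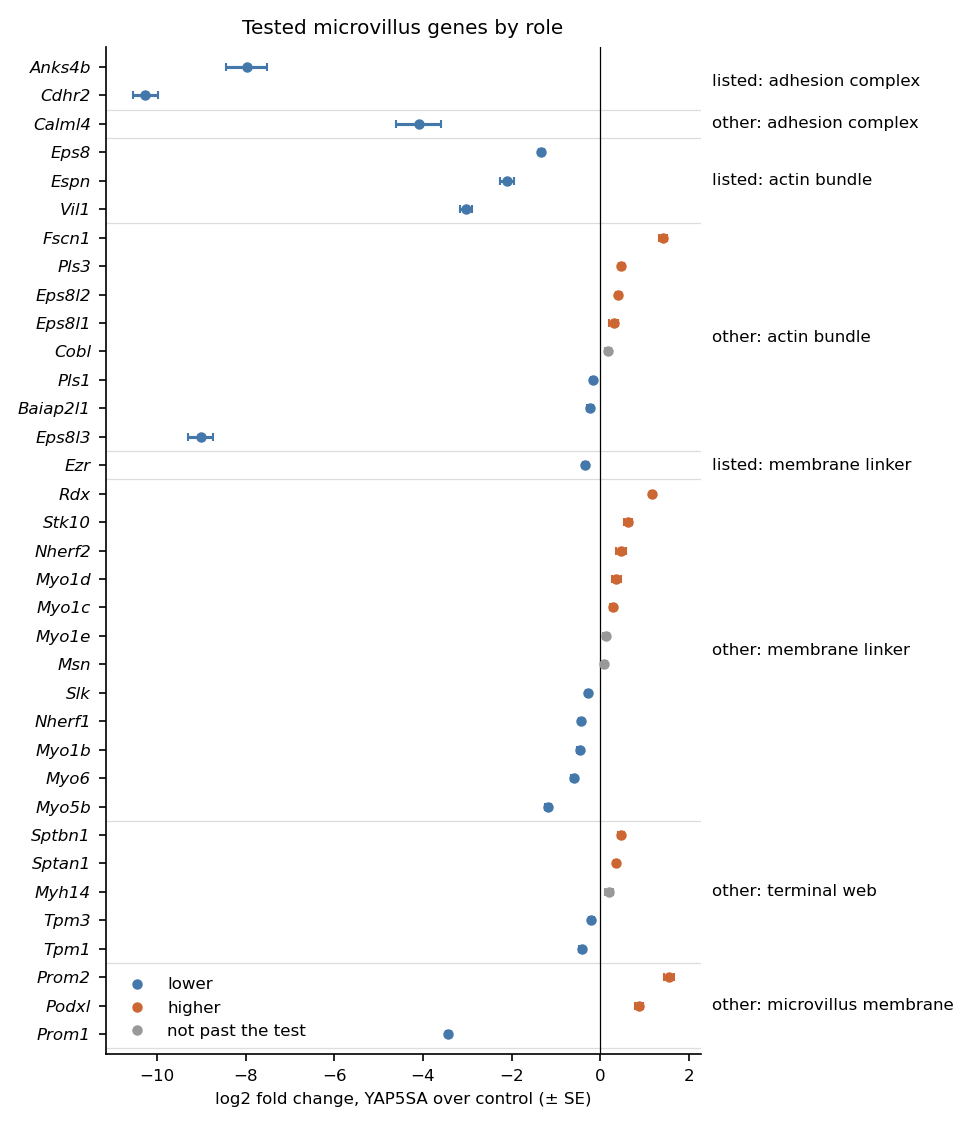
Log2 fold change, YAP5SA over control, with its standard error (x axis), for the tested genes among the 10 listed microvillus genes and 33 others, grouped by role (y axis). Blue points passed as lower, orange points as higher, grey points did not pass. The 6 listed genes lie left of 0, and the other genes lie on both sides. The values of Cdhr2, Anks4b and Eps8l3 rest on 1 or 2 counts in YAP5SA.

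Within 4 protein families, the share of Ezr, Eps8, Vil1 or Pls1 was smaller in every YAP5SA library than in any control. Their relatives Rdx, Msn, Eps8l1, Eps8l2, Eps8l3 and Pls3 were themselves listed among the further microvillus structural genes. The share of a family's summed CPM per kb was computed in each library and compared with an exact two-sided permutation test, whose smallest p with 4 against 4 libraries is 0.0286, adjusted over 7 families. Ezr made up 83.6 ± 0.2% of the ezrin, radixin and moesin genes in controls and 69.6 ± 0.9% in YAP5SA. Rdx, which encodes radixin, rose from 195.0 ± 4.1 to 441.6 ± 7.3 CPM (log2 fold change 1.18 ± 0.05 SE, adjusted p = 3.11e-13, edgeR), and its share went from 9.42 ± 0.37% to 22.5 ± 0.9%. Msn, for moesin, had 199.0 ± 23.2 and 211.9 ± 12.1 CPM and did not pass (adjusted p = 0.309, edgeR). The family's summed level ran from 427.6 to 485.9 CPM per kb in controls and from 403.4 to 443.8 in YAP5SA, so the sums of the groups overlapped while the share of Ezr did not.

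The EPS8 family differed in both make-up and total. Eps8 made up 43.2 ± 3.0% of the 4 genes per length in controls and 26.3 ± 2.0% in YAP5SA. Eps8l2 rose from 66.0 ± 4.6 to 87.7 ± 5.2 CPM, with shares of 28.3 ± 1.6% and 57.5 ± 2.3%. Eps8l3 made up 19.8 ± 1.8% and 0.046 ± 0.054%. Eps8l1 rose (log2 fold change 0.30, adjusted p = 0.0183, edgeR). That call was lost on leaving out control 3 (0.0839), YAP5SA 1 (0.0583) or YAP5SA 3 (0.0615), each an adjusted p. The family sum was 43.3 ± 0.6 CPM per kb in controls and 28.4 ± 0.6 in YAP5SA.

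Among 7 villin and gelsolin genes, Vil1 made up 21.1 ± 1.3% in controls and 2.55 ± 0.72% in YAP5SA. The family sums overlapped, with 120.4 to 139.0 CPM per kb in controls and 129.7 to 142.8 in YAP5SA. Vill, a villin-like gene, rose from 66.5 ± 7.2 to 98.2 ± 7.0 CPM, and the capping protein gene Capg from 58.6 ± 7.1 to 105.3 ± 4.7 CPM, while Gsn, for gelsolin, and Svil, for supervillin, did not pass (log2 fold change 0.07 and 0.01). Scin, for scinderin, rose from 0.43 ± 0.11 to 0.98 ± 0.24 CPM but did not pass without YAP5SA 1 (adjusted p = 0.0528, edgeR). Avil, for advillin, fell from 11.6 ± 1.1 to 5.62 ± 2.33 CPM. The plastins are another bundler family without a listed member. Pls1, the form of microvilli, fell slightly (178.6 ± 5.6 to 159.4 ± 5.1 CPM). Lcp1 fell by more (73.8 ± 5.2 to 44.7 ± 3.1 CPM, log2 fold change −0.72 against −0.16 for Pls1). Pls3 rose (295.5 to 332.8 CPM in controls, 400.3 to 473.0 in YAP5SA). Pls1 made up 36.0 ± 1.5% of the plastins in controls and 27.6 ± 1.1% in YAP5SA.

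For these 4 families the libraries of the groups did not overlap and the exact permutation p was the smallest possible, 0.0286, which adjusted to 0.05 and so was not under the threshold. Without YAP5SA 4, these 4 and Myo1a had an adjusted p of 0.04 by the same exact test. The step from 0.05 to 0.04 arose because Myo1a joined the 4 at the smallest p in the adjustment. It adds nothing for the 4 themselves. With all libraries, the other 3 families did not pass. Myo1a made up 0.114 ± 0.042% and 0.049 ± 0.039% of the class I myosin genes (adjusted p = 0.12, exact permutation test), where Myo1c was the most abundant per length at 60.0 and 72.8 CPM per kb. Myo7b made up 4.42 ± 3.00% and 3.01 ± 3.68% of the class VII pair, and Espn 98.3 ± 1.2% and 97.5 ± 2.9% of the espin pair (adjusted p = 0.743 for both, exact permutation test).

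**Figure D3:**
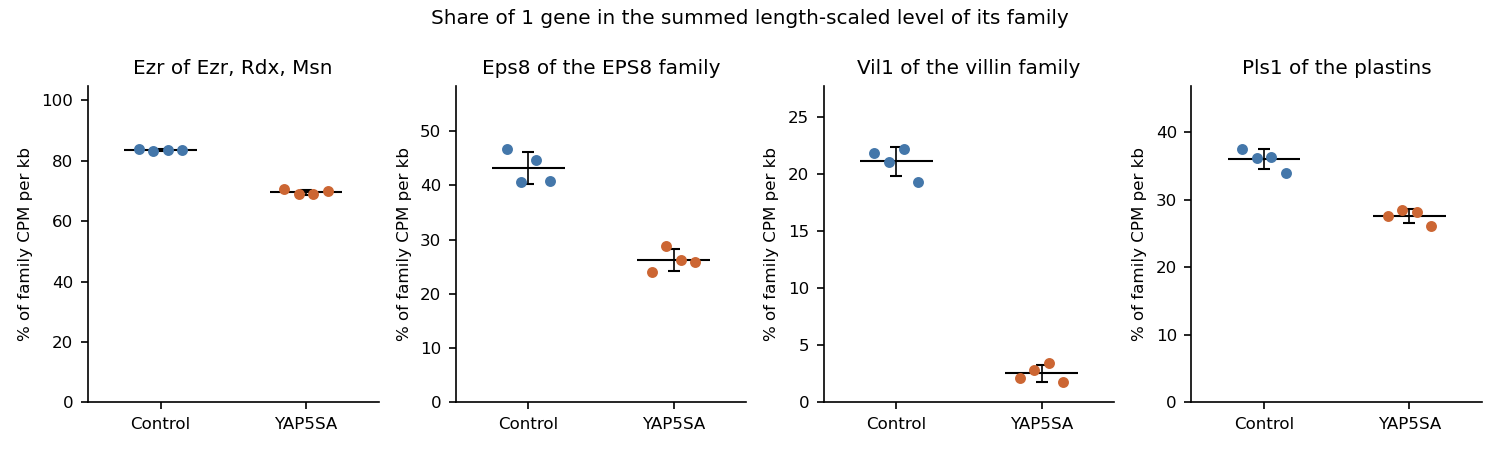
Share of Ezr, Eps8, Vil1 and Pls1 in the summed CPM per kb of their protein family (y axis, percent, from 0), in the 4 control and 4 YAP5SA libraries (x axis). Points are libraries, lines are means and bars ± 1 SD. All 4 shares are lower in every YAP5SA library than in every control library, with Vil1 going from 21.1% to 2.55%.

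Inner-ear hair cells build stereocilia, large relatives of microvilli, with paralogs of some of these genes, beside shared genes such as Espn. Of 12 such paralogs, 5 were tested, 3 fell and none rose by edgeR, with a median log2 fold change of −1.04 among those tested. None were higher at an unadjusted p under 0.05 or by DESeq2 either. Over all tested genes, 49.1% were called and 25.5% were lower. Besides Avil, Myo7a fell from 4.21 ± 0.64 to 1.38 ± 0.36 CPM and the scaffold gene Whrn from 1.99 ± 0.58 to 0.53 ± 0.36 CPM. The paralogs of the tip-link cadherins, Cdh23 and Pcdh15, had 3 and 2 counts in controls and 3 and 0 in YAP5SA.

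Enzymes and transporters of the intestinal brush border, listed together with lipid-binding genes such as Fabp1, were mostly near 0 in both groups. Of 32 such genes, 26 were too low to test. Among them, Lct, Sis, Alpi, Slc5a1 and Fabp1 had at most 15 counts each over the 4 controls. Also untested, Ggt1 had 60 and 14 counts over controls and YAP5SA, Mgam 37 and 8, Mep1b 31 and 0, and Fabp2 11 and 38. Of the 6 tested, 3 fell and 1 rose, where 49.1% of all tested genes were called and 25.5% were lower. Their median log2 fold change was −1.29. Anpep, which encodes aminopeptidase N, fell by 5.82 on the log2 scale (SE 0.40, adjusted p = 7.13e-06, edgeR), with controls at 38.6 to 74.9 CPM and YAP5SA libraries at 0.77 to 1.67. The chloride channel gene Cftr fell from 71.3 ± 5.1 to 5.59 ± 1.28 CPM and Ace, which encodes the angiotensin-converting enzyme, from 12.6 ± 2.3 to 2.01 ± 0.41 CPM. Dpp4, for dipeptidyl peptidase 4, went the other way, from 2.43 ± 0.33 to 10.5 ± 2.4 CPM. Without a filter on low counts, 8 of these genes fell and 2 rose.

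Of 11 transcription factors known to bind brush border genes, 9 were tested, 6 were lower, 1 was higher and 2 did not pass, with a median log2 fold change of −0.72. Among all tested genes, 25.5% were lower. Gata5 and Hnf4g, with under 10 counts in every YAP5SA library, passed the filter through the controls. Gata5 had a log2 fold change of −8.74 and Hnf4a of −5.04, both past the test, and Hnf4g fell from 1.97 ± 0.53 to 0.30 ± 0.03 CPM. Klf4, an epithelial differentiation factor, rose to 122.0 ± 3.6 CPM from 21.9 ± 1.0 CPM. The intestinal factors Cdx1 and Cdx2 had 0 counts in all 8 libraries. Their part in the levels of the 10 genes was not tested.

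**Figure D4:**
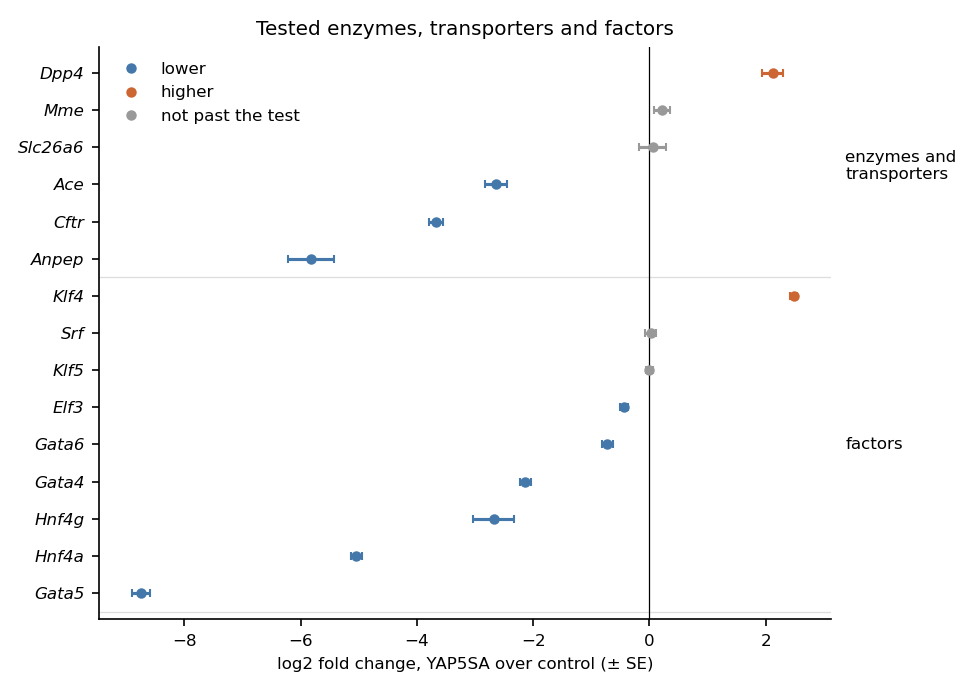
Log2 fold change, YAP5SA over control, with its standard error (x axis), for the 6 tested brush border enzymes and transporters and the 9 tested transcription factors (y axis). Colours are as in the plot of microvillus genes by role. Anpep, Cftr, Ace, Hnf4a, Hnf4g and the 3 GATA genes are among those left of 0, and Dpp4 and Klf4 lie right of 0 as higher.

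Markers of stomach cell types with microvilli moved in the same comparison, in which 49.1% of all tested genes were called and 25.5% were lower. Of 9 genes listed for parietal cells, 6 of 7 tested fell. Their summed level ran from 679.3 to 787.9 CPM in controls and from 151.1 to 181.3 CPM in YAP5SA. The count and sum include Cblif, which is not particular to parietal cells in mouse and fell (66.8 to 174.0 CPM in controls, 0.12 to 0.55 CPM in YAP5SA). Kcnj15 was the most abundant in controls and fell (283.7 ± 12.1 to 0.61 ± 0.45 CPM). Kcnq1 took most of the YAP5SA sum and did not pass (153.2 ± 18.1 and 159.1 ± 14.6 CPM). Of the proton pump genes, Atp4b had 3 and 0 counts. Atp4a fell from 8.21 ± 0.27 to 5.40 ± 1.33 CPM (log2 fold change −0.60). Of 6 pit cell genes, 4 fell and 1 rose, with summed levels of 371.7 to 404.6 and 106.4 to 121.1 CPM. Ctse, the most abundant pit cell gene in controls, fell from 147.0 ± 9.3 to 2.41 ± 0.75 CPM. Foxq1 rose from 56.9 ± 2.6 to 108.8 ± 5.5 CPM and took most of the YAP5SA sum. Muc5ac was low and did not pass (0.72 ± 0.50 and 1.38 ± 0.50 CPM, adjusted p = 0.0654, edgeR). In edgeR it passed as higher with no filter (adjusted p = 0.0332), without control 4 (0.00714) or without YAP5SA 1 (0.0383). The pit cell genes Gkn1 and Gkn2 and the parietal cell gene Esrrg had under 10 counts in every YAP5SA library. They passed the filter through the controls, so their calls as lower carry that limit. Of 10 tuft cell genes, 3 of 5 tested fell and 1 rose, and the summed levels overlapped (19.8 to 24.4 and 17.3 to 25.4 CPM), with the defining factor gene Pou2f3 at 0 and 4 counts. Avil was the most abundant of them in controls and Dclk1 in YAP5SA, where it rose (6.10 ± 1.26 to 12.8 ± 1.2 CPM). The call of Ltc4s was lost on leaving out control 3 (0.0562), YAP5SA 1 (0.0561) or YAP5SA 4 (0.0578), each an adjusted p from edgeR. The part of these cell types in the changes of Cdhr2, Anks4b, Vil1, Espn, Eps8 and Ezr was not tested.

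Most endothelial, immune and enteric neural markers had few counts, with Cd68, Tek and Ret as exceptions in controls. Tek, the most abundant of 5 endothelial genes, fell from 8.88 ± 2.98 to 0.32 ± 0.26 CPM while Pecam1 and Cdh5 had at most 13 counts over a group. Of 6 immune genes, Cd68, the most abundant, fell from 28.6 ± 8.0 to 7.88 ± 1.15 CPM and Csf1r rose from 0.19 ± 0.07 to 1.49 ± 0.60 CPM. Csf1r, with under 10 counts in every control library, passed the filter through YAP5SA. Ret, the most abundant of 5 enteric neural genes, fell, with 5.24 to 10.1 CPM in controls and 2.76 to 3.67 CPM in YAP5SA. Their part in the results was not tested.

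The genes whose level over the 8 libraries most resembled that of Vil1 were Adam28, Plet1, Zdhhc15, Cyp2c23 and Misp. Likeness was the Euclidean distance in log2 CPM centred on each gene's mean, from 0.33 for Adam28 to 0.52 for Misp, after adding 0.5 CPM, and is a description of these 8 libraries. The added 0.5 CPM compresses low values, so that Cyp2c23, with 253 counts in controls and 2 in YAP5SA, is listed although its fitted log2 fold change was −6.63. Misp, whose product binds actin bundles, went from 54.1 ± 3.6 to 7.32 ± 0.97 CPM. Adam28, a metalloprotease gene, had 23.7 ± 1.0 and 2.51 ± 0.54 CPM.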

How the data were processed

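Bulk RNA was measured in 4 control and 4 YAP5SA organoid libraries, sequenced as 150 bp paired ends, per the labels. The deposited values are raw read counts per gene symbol. The submitters' processing notes name cutadapt, HISAT2 2.0.1, HTSeq 0.6.1 and build mm9, with no roles. The sources used here do not give the annotation, strand or counting options. Exons of Vil1, Ezr and Ush1c overlap an opposite-strand gene over 1.38%, 0.122% and 3.12% of their length (GENCODE M21).

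Of 56691 rows, 2639 without a gene name (at most 0.221% of a library) were left out, and rows sharing a symbol were summed. Genes kept by filterByExpr (minimum count 10, minimum total 15) were TMM-scaled. The test was edgeR's quasi-likelihood F-test (version 4.0.16, under R 4.3.3), robust, with genotype as its only term. Standard errors are the log2 fold change over the square root of F. Exon lengths are the union of exons in GENCODE M21, matched by symbol, with 4 listed genes under an older symbol in the table. Pooled ratios have exact 95% intervals, which, like the 3-count floor, hold counting error alone, as PCR copies are not marked. Alternatives were library-size scaling, DESeq2 1.42.0, no filter, a threshold of 0.01, a replicate block and leaving out each library.

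The members and gene lists were chosen with earlier results of these data known. Genes named are all members, most relatives in their families, and the 5 genes nearest to Vil1. From each other list, up to 4 called genes with the largest change and at least 1 CPM in a group are named. The top marker by level in each list of other cells is also named. Lct, Sis, Alpi, Slc5a1, Fabp1, Ggt1, Mgam, Mep1b, Fabp2, Fscn1, Cobl, Cldn7, Kcnq1, Ltc4s, Dclk1, Csf1r, Cdh23, Pcdh15, Cdx1, Cdx2, Myh14, Atp4a, Atp4b, Foxq1, Muc5ac, Krt18, Pou2f3, Lum, Pecam1 and Cdh5 were named after their values were seen. Some items of the lists and motif search are not reported here.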

Additional observations from a re-analysis of the deposited data

Results flagged for a closer look

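Each item here is a library that stood apart from the other 3 of its group in a gap test on its highest or lowest value. With normally distributed values, chance flags about 1 of 20 groups. That rate does not hold for genes near 0, where a count in a single library of a group is always flagged. Cdhr2 was lowest in control 2, at 23.8 CPM. Control 1 was the only control with 0 CPM of Myo7b, and Espn made up 100% of the espin pair there because its relative Espnl had no count. YAP5SA 4 had the most Myo1a of its group, 0.589 CPM from 10 counts, and so the highest share of Myo1a among class I myosins, 0.107%. The remaining items rest on a single count. YAP5SA 2 had 0.0552 CPM of Cdhr2 and of Anks4b, and YAP5SA 1 had 0.0647 CPM of Cdhr5, each beside 0 in the other YAP5SA libraries.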

How the results depend on the processing

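The 6 tested members were called as lower under library-size scaling, DESeq2, no filter, a threshold of 0.01, the replicate block and without each library in turn. Across the fits without 1 library, 24 to 29 of the further structural genes, 4 or 5 enzymes and transporters, 3 stereocilium paralogs and 7 factors were called. Without a filter on low counts, 10 enzymes and transporters were called in place of 4, since more of them were tested. Scaling by library size alone turned the balance over all genes from 3315 higher and 3584 lower to 3635 higher and 3282 lower, with the median log2 fold change at 0.03. Replicate numbers did not pair the samples (correlation of same-numbered deviations −0.0989 to 0.0956, with 1 of 4 controls closest to its own number); with the replicate block, 6 members and 6586 genes in all were called.

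Without YAP5SA 4, 5 family shares passed at an adjusted p of 0.04 (exact permutation test). The differences, YAP5SA minus control, were −14.1 (Ezr), −16.8 (Eps8), −0.0839 (Myo1a), −18.3 (Vil1) and −7.90 (Pls1) percentage points. The shares other than that of Myo1a passed there only because Myo1a joined them at the smallest p in the adjustment. Over all libraries left out in turn, the differences ran from −14.3 to −13.7 (Ezr), −17.8 to −15.8 (Eps8), −0.0839 to −0.0464 (Myo1a), −2.90 to −0.406 (Myo7b), −19.2 to −18.2 (Vil1), −9.08 to −7.89 (Pls1) and −1.55 to 0.357 (Espn), and all genes called from 6371 to 7317. Shares of raw counts, without division by length, gave −23.7 for Eps8 and −0.0350 for Myo1a against −16.9 and −0.0645, and ended or added no call in any of the 7 families. Cdhr5, Myo7b, Ush1c and Myo1a had too few counts to test, and why was not tested.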
